A study of Mus musculus with 6 samples.

Results

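Platelet adhesion receptor genes encode the surface proteins with which a platelet catches the injured vessel wall and other platelets. The 10 described here were listed by name: the 4 subunits of the glycoprotein Ib-IX-V complex (Gp1ba, Gp1bb, Gp5 and Gp9), both subunits of the fibrinogen receptor integrin alphaIIb-beta3 (Itga2b and Itgb3), the ligand von Willebrand factor (Vwf), the receptors TLT-1 (Treml1) and CLEC-2 (Clec1b), and the tetraspanin Cd9. They are 10 of 49671 gene identifiers in the count table, and all 10 were among the 14637 genes tested over the 6 libraries. Under flow, glycoprotein Ib holds von Willebrand factor on exposed collagen, and the activated integrin then binds fibrinogen and von Willebrand factor and links platelets to each other. In marrow these transcripts are known from megakaryocytes, and Itga2b, Vwf and Cd9 also from a share of blood stem cells.

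RNA was sequenced from mouse marrow cells of the BALB/c strain that had been enriched for stem and progenitor cells and infected with a retrovirus. Cells of the shCxxc5 group carried a short hairpin RNA against Cxxc5, a CXXC zinc finger gene, and cells of the shCtrl group a hairpin that matches no mouse gene. Both groups were sorted as GFP-positive LSK cells, a stem and early progenitor fraction that lacks lineage markers and carries Sca-1 and Kit on its surface. Each group had 3 libraries, numbered 2, 3 and 4, and each library pooled several animals. The sources used here do not give the age of the mice, the time from infection to sorting or the number of hairpin sequences. Since nothing states that the numbers mark separate infections, the spread behind each p-value is that of these pooled libraries and could be technical.

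Total counts ran from 15002414 to 27754019 per library. Cxxc5 itself lay at 6.73, 17.4 and 17.9 CPM (counts relative to the library total, scaled by TMM factors) in shCxxc5 libraries 2, 3 and 4, against 82.1, 59.8 and 57.8 CPM in shCtrl libraries 2, 3 and 4, so every shCxxc5 library had less of the target. Replicate 2 differed from the other libraries in both groups. Transcripts of Ly6a, the gene of Sca-1, were at 33.1 CPM in shCxxc5 and 46.4 CPM in shCtrl of replicate 2, against 702 and 710 CPM in shCxxc5 and 803 and 785 CPM in shCtrl of replicates 3 and 4. Kit, the other sort marker, ranged from 99.5 to 110 CPM in shCxxc5 and from 82.2 to 107 CPM in shCtrl. Values are therefore given for each library, and tests both with replicate 2 and without it.

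The adhesion genes held 0.123%, 0.0322% and 0.0313% of all counts in shCxxc5 libraries 2, 3 and 4, against 0.526%, 0.0490% and 0.0483% in shCtrl libraries 2, 3 and 4. Their summed level was lower in shCxxc5 than in shCtrl of the same number each time, and it was higher in both replicate 2 libraries than in the other 4. In bulk RNA, fewer cells with a transcript and less of it per cell cannot be told apart. The 2 integrin genes made up most of the sum, with 73.8%, 81.7% and 80.8% of the adhesion gene counts in shCxxc5 and 69.2%, 85.2% and 85.7% in shCtrl.

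**Figure D1:**
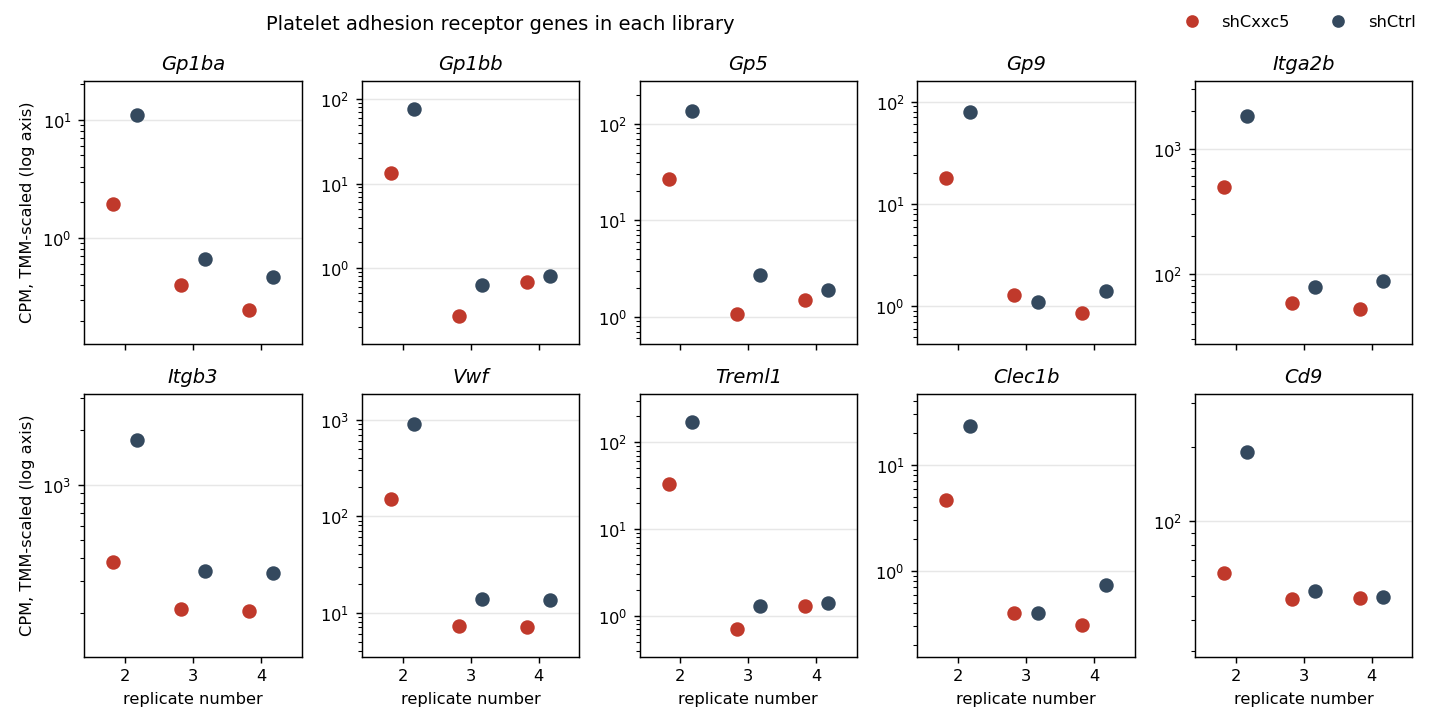
Level of each platelet adhesion gene in each library (TMM-scaled CPM on a log axis, 1 panel per gene), with shCxxc5 in red and shCtrl in blue at replicate numbers 2, 3 and 4. In every panel both replicate 2 points lie above the other 4 points, and the panels for Itga2b, Itgb3 and Vwf show shCxxc5 below shCtrl at each number.

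Per kilobase of exon, Itga2b and Itgb3 led in replicate 2 and Itgb3 and Cd9 in the others. The length used joins all annotated exons of a gene. Transcripts in use can be shorter, so comparisons between genes depend on that choice. Itga2b stood at 91.3 CPM per kilobase in shCxxc5 and 333 CPM per kilobase in shCtrl of replicate 2, with Itgb3 next at 64.1 in shCxxc5 and 299 in shCtrl. In replicates 3 and 4, Itgb3 stood at 35.7 and 34.8 CPM per kilobase in shCxxc5 and at 57.8 and 55.9 in shCtrl, followed in each library by Cd9, Itga2b and Gp9. Vwf, Treml1 and Gp5 lay close together below Gp9, between 0.441 and 1.22 CPM per kilobase over those 4 libraries. Gp1ba and Clec1b were lowest, with at most 0.246 CPM per kilobase there. Gp1bb is left out of this order because 1938 of its 2087 exon bases also belong to exons of other genes on the same strand. These are Sept5 and Gm49601, of which Gm49601 is not among the counted genes.

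The ligand-binding chain of glycoprotein Ib, encoded by Gp1ba (chr11:70639122-70642036, plus strand, GRCm38), was rare in all but replicate 2. It had 1.94, 0.401 and 0.247 CPM in shCxxc5 libraries 2, 3 and 4, against 11.01, 0.668 and 0.470 CPM in shCtrl libraries 2, 3 and 4. Each shCxxc5 library was below its shCtrl partner, but outside replicate 2 the values rest on 4 to 15 reads. The log2 ratio of shCxxc5 over shCtrl (with a prior count of 2) was -2.45 in pair 2, -0.62 in pair 3 and -0.73 in pair 4. The 95% counting interval, an exact binomial interval on the reads of one pair, excluded equality in pair 2 alone. Such intervals cover counting error and no spread between libraries.

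Gp5 (chr16:30307685-30310779, minus strand) encodes the subunit that thrombin cleaves, and complex assembly does not need it. Its level was 26.7, 1.07 and 1.48 CPM in shCxxc5 libraries 2, 3 and 4, against 135, 2.67 and 1.88 CPM in shCtrl libraries 2, 3 and 4. The groups did not overlap in replicates 3 and 4, and the log2 ratios were -2.34, -1.25 and -0.33 in pairs 2, 3 and 4. Gp9 (chr6:87778072-87779768, plus strand), a small subunit required for surface expression of the complex, was the exception among the 10 genes. It stood at 17.8, 1.29 and 0.863 CPM in shCxxc5 libraries 2, 3 and 4, against 79.2, 1.11 and 1.41 CPM in shCtrl libraries 2, 3 and 4. The groups overlapped in replicates 3 and 4, and in pair 3 shCxxc5 was the higher, with a log2 ratio of 0.20 and 29 reads in shCxxc5 against 25 in shCtrl.

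Gp1bb (chr16:18620317-18622403, minus strand) encodes the chain bound to glycoprotein Ib alpha by disulphide bonds. Its count was 384, 6 and 11 reads in shCxxc5 libraries 2, 3 and 4, against 1831, 14 and 12 reads in shCtrl libraries 2, 3 and 4. Because of the shared exons, reads of Gp1bb and of the septin gene Sept5 could be split either way, and its values are uncertain. Sept5, counted from the same locus, had 130, 36 and 22 reads in shCxxc5 and 151, 71 and 18 reads in shCtrl, so it held more reads than Gp1bb in all 4 libraries outside replicate 2 and fewer within it.

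Promoters of the adhesion genes are shown because their transcripts were high and low in the same libraries. RefSeq sequences (GRCm38.p6) from 250 bases before to 50 bases after the gene start were found for 8 of the 10 genes, all but Itgb3 and Vwf. They were searched on both strands for AGATAA and TGATAA (2 forms of the GATA factor motif that share their last 5 letters), the ETS factor motif CAGGAAG, the RUNX factor motif TGTGGT, and TGACTCA, the motif of AP-1 and NF-E2. These factor families have known roles in megakaryocytes. The 4 promoters that held a match are printed 5′ to 3′ on the strand of the gene, with the matched letters in capitals.
Gp1ba: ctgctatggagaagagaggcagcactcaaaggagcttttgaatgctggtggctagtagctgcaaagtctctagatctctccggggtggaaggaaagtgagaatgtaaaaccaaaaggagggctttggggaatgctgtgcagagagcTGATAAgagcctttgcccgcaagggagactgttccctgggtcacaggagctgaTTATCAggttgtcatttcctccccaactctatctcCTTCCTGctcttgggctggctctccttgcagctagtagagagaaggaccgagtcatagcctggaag
Gp5: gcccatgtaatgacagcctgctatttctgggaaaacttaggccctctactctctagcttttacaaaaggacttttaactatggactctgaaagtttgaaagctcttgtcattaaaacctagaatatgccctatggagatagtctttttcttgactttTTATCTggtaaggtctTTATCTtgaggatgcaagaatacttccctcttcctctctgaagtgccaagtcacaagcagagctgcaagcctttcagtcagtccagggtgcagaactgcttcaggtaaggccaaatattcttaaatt
Gp9: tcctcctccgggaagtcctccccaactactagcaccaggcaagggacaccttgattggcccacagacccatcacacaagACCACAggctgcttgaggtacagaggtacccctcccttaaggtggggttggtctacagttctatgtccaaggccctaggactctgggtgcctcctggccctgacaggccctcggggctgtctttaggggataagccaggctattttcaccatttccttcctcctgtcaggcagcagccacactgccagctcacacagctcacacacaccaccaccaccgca
Clec1b: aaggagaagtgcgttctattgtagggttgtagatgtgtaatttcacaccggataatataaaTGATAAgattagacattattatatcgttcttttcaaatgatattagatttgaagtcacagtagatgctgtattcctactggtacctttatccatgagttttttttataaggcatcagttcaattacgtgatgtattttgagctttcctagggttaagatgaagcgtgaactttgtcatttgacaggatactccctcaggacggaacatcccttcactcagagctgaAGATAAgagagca
The windows are chr11:70638872-70639171 on the plus strand for Gp1ba, chr16:30310732-30311031 on the minus strand for Gp5, chr6:87777820-87778119 on the plus strand for Gp9 and chr6:129397047-129397346 on the plus strand for Clec1b. In Gp1ba, TGATAA stands 104 bases before the start, its reverse complement TTATCA 51 bases before and the ETS letters 16 bases before. In Gp5 the reverse complement TTATCT of AGATAA occurs 93 and 77 bases before the start. In Gp9 the reverse complement ACCACA of the RUNX letters lies 171 bases before the start. In Clec1b, TGATAA lies 189 bases before and AGATAA 37 bases after the start. Among the 8 promoters, AGATAA was held by 2, TGATAA by 2, CAGGAAG by 1, TGTGGT by 1 and TGACTCA by 0. Over all 32851 promoters in the table the shares were 11.2%, 9.05%, 13.3%, 16.8% and 5.20% in the same order. A match describes these letters in this window and does not mark a bound site.

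Itga2b (chr11:102453297-102470122, minus strand) encodes the alpha chain of the fibrinogen receptor, known as CD41 on megakaryocytes and on early blood progenitors. It stood at 498, 58.3 and 52.9 CPM in shCxxc5 libraries 2, 3 and 4, against 1816, 78.8 and 87.3 CPM in shCtrl libraries 2, 3 and 4. Itgb3 (chr11:104608000-104670476, plus strand) encodes the beta chain, which also pairs with integrin alpha V. Its level was 378, 210 and 205 CPM in shCxxc5 libraries 2, 3 and 4, against 1764, 341 and 330 CPM in shCtrl libraries 2, 3 and 4. For both chains shCxxc5 was lower in every pair, and with replicate 2 set aside the groups did not overlap.

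Log2 ratios of shCxxc5 over shCtrl were -1.87, -0.43 and -0.72 for Itga2b and -2.22, -0.70 and -0.68 for Itgb3 in pairs 2, 3 and 4. In replicates 3 and 4 alone, edgeR's quasi-likelihood test with Benjamini-Hochberg adjustment called both lower, Itga2b with a log2 fold change of -0.56 (SE 0.06, adjusted p = 5.16e-08) and Itgb3 with -0.69 (SE 0.04, adjusted p = 2.83e-14). The balance of the 2 chains differed between the replicate numbers more than between the groups. Per kilobase, the ratio of Itga2b to Itgb3 was 1.42 (95% counting interval 1.39 to 1.46) in shCxxc5 and 1.11 (1.10 to 1.13) in shCtrl of replicate 2. It was 0.300 and 0.279 in shCxxc5 and 0.250 and 0.287 in shCtrl of replicates 3 and 4. By this exon length, alpha chain transcripts thus exceeded beta chain transcripts in the 2 libraries of replicate 2 and were fewer in the other 4.

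**Figure D2:**
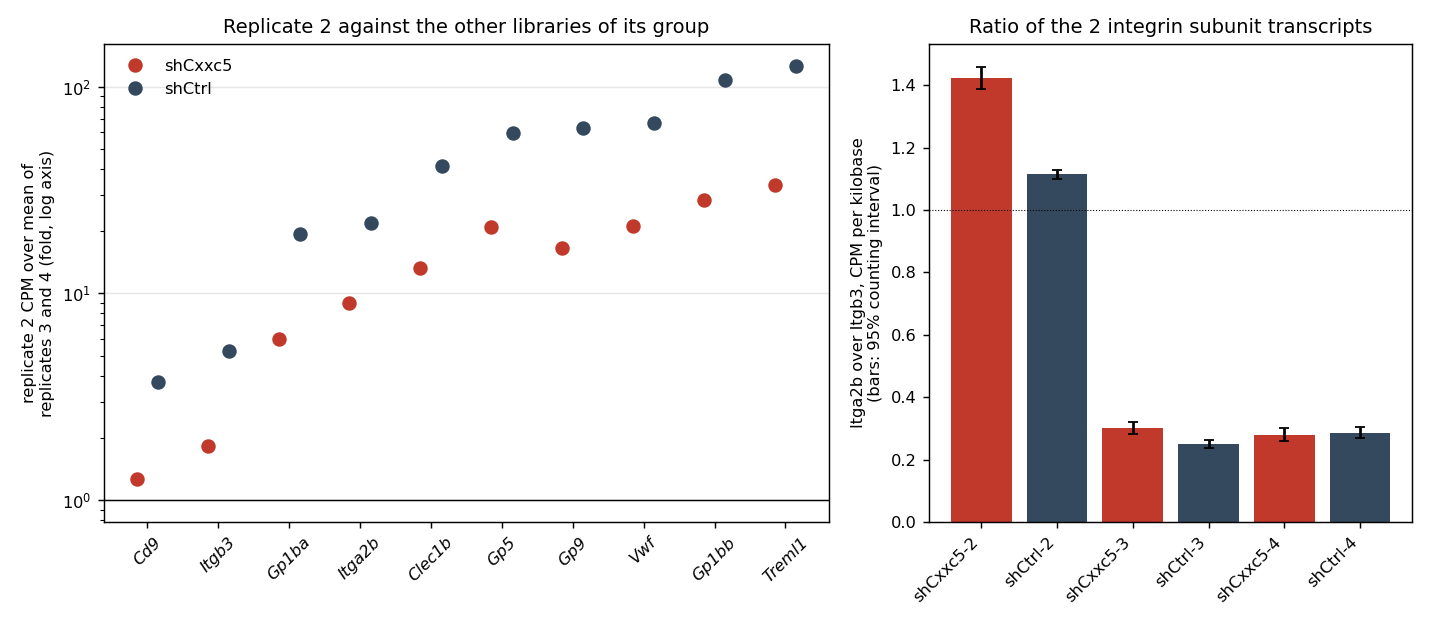
Left, level of each adhesion gene in replicate 2 over its mean in replicates 3 and 4 of the same group (fold, log axis), with shCxxc5 in red and shCtrl in blue. Right, Itga2b over Itgb3 per kilobase of exon in each library with 95% counting intervals, near 1.42 and 1.11 in replicate 2 and between 0.250 and 0.300 in the other 4 libraries.

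Vwf (chr6:125546774-125686679, plus strand), the ligand that bridges collagen and glycoprotein Ib, had the largest within-pair difference of the 10 genes in pair 2. It lay at 152, 7.17 and 7.09 CPM in shCxxc5 libraries 2, 3 and 4, against 903, 13.7 and 13.5 CPM in shCtrl libraries 2, 3 and 4. Levels within a group were close to each other in replicates 3 and 4, and the groups did not overlap there. The log2 ratios were -2.57, -0.93 and -0.92 in pairs 2, 3 and 4. Vwf in replicates 3 and 4 fell by 0.93 on the log2 scale (SE 0.12), with an adjusted p of 1.96e-06 by edgeR's quasi-likelihood test.

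Treml1 (chr17:48359916-48367176, plus strand) encodes TLT-1, a receptor stored in platelet alpha granules that binds fibrinogen. It had 33.5, 0.712 and 1.29 CPM in shCxxc5 libraries 2, 3 and 4, against 170, 1.29 and 1.41 CPM in shCtrl libraries 2, 3 and 4. Without replicate 2 the groups met, at 21 reads in shCxxc5 and 21 reads in shCtrl of replicate 4. Clec1b (chr6:129397297-129409335, plus strand) encodes CLEC-2, the receptor for podoplanin that signals through the kinase Syk. Its level was 4.72, 0.401 and 0.308 CPM in shCxxc5 libraries 2, 3 and 4, against 23.5, 0.401 and 0.739 CPM in shCtrl libraries 2, 3 and 4. In pair 3 both libraries held 9 reads, and 184 exon bases are shared with Clec9a on the same strand.

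Cd9 (chr6:125460266-125494791, minus strand) encodes a tetraspanin that associates with integrins and is also found on stem cells and many other cells. It stood at 61.9, 48.7 and 49.3 CPM in shCxxc5 libraries 2, 3 and 4, against 191, 52.6 and 49.5 CPM in shCtrl libraries 2, 3 and 4. Outside replicate 2 the 4 libraries were nearly level, and the log2 ratios were -1.62, -0.11 and -0.01 in pairs 2, 3 and 4. Its log2 fold change in replicates 3 and 4 was -0.06 (SE 0.06), which did not pass edgeR's quasi-likelihood test (adjusted p = 0.567). An antisense gene shares 218 of its exon bases.

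Across the pairs of equal number, 9 of the 10 genes were lower in shCxxc5 in all 3 pairs, with Gp9 the exception, against 22.4% of all tested genes. The 9 include Clec1b, with 9 reads in both libraries of pair 3, Treml1, with 21 reads in both of pair 4, and Cd9, whose log2 ratio in pair 4 was -0.01. The median log2 ratio of the 10 genes was -2.32 in pair 2, -0.66 in pair 3 and -0.67 in pair 4, beside -0.04, -0.01 and -0.00 over all tested genes. In pair 2 the counting interval lay below equality for all 10 genes, against 34.7% of all tested genes. It did so for 4 in pair 3 (Gp5, Itga2b, Itgb3 and Vwf), against 17.7%, and for 3 in pair 4 (Itga2b, Itgb3 and Vwf), against 15.3%. Over all 6 libraries, 0 of the 10 genes had all shCxxc5 libraries below all shCtrl libraries, against 6.35% of all tested genes, since shCxxc5 replicate 2 exceeded shCtrl replicates 3 and 4 for each gene. Restricted to replicates 3 and 4, 7 of the 10 did not overlap, against 29.3% of all tested genes, where Clec1b enters the 7 with equal reads in pair 3 and Cd9 with 49.3 CPM in shCxxc5 against 49.5 CPM in shCtrl of replicate 4.

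**Figure D3:**
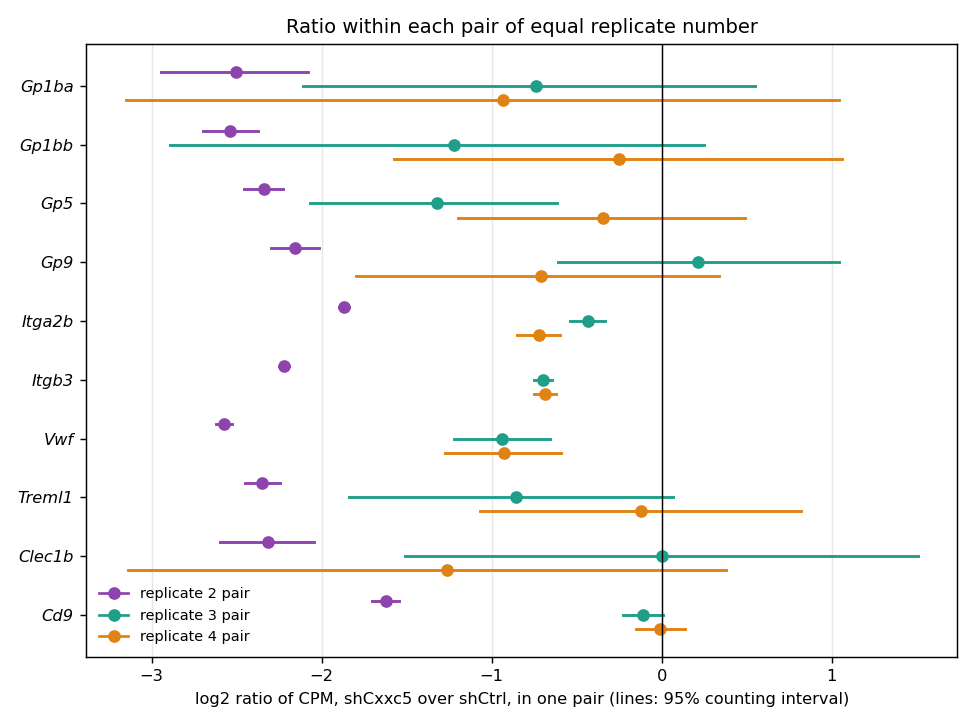
Log2 ratio of CPM, shCxxc5 over shCtrl, for each adhesion gene in the pairs of replicate 2, 3 and 4, without a prior count and with 95% counting intervals. All 10 intervals of pair 2 lie below 0, and in pairs 3 and 4 those of Itga2b, Itgb3 and Vwf do.

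Over all 6 libraries no adhesion gene passed edgeR's quasi-likelihood test, where 0 of 14637 genes did (0% called, 575 at an unadjusted p under 0.05, of which 0 were adhesion genes). Their log2 fold changes ran from -2.48 for Vwf (SE 2.02) to -0.87 for Cd9 (SE 0.55), each with an adjusted p of 0.940. DESeq2 called 19 genes. Among the 10 it gave an adjusted p for Itgb3 (0.866) and Cd9 (0.9997), which did not pass, and none for the other 8. With the replicate number as a block, edgeR again called 0 genes (1796 at an unadjusted p under 0.05) and DESeq2 147. Among those 147 were Gp1bb (-1.63, DESeq2 adjusted p = 0.0254) and Gp5 (-1.49, DESeq2 adjusted p = 0.00352). Without shCtrl replicate 2, in a fit that keeps shCxxc5 replicate 2, the sign turned for 9 of the 10 genes, with Treml1 at 3.14 and Vwf at 2.03, while Itgb3 stayed below 0 at -0.34.

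In replicates 3 and 4 alone, 8 of the 10 genes had enough reads to be tested, without Gp1ba and Clec1b. Of the 8, 4 fell (Itga2b, Itgb3, Vwf and Gp5) and 0 rose, against 9.0% of 14193 tested genes that fell and 11% that rose (with library totals in place of TMM, 1606 fell and 1120 rose in place of 1278 and 1555). The median log2 fold change of the 8 was -0.60, beside -0.00 over all tested genes. Gp5 stood at -0.89 (SE 0.32), with an adjusted p of 0.0452 by edgeR's quasi-likelihood test. The Gp5 call was lost in limma-voom (adjusted p = 0.0549), without robust fitting (0.0501) and without shCxxc5 replicate 3 (0.354), shCtrl replicate 3 (0.413) or shCxxc5 replicate 4 (0.0584), fits that assume a lone library varies like the others, and DESeq2 gave it no adjusted p. Itga2b, Itgb3 and Vwf passed in each fit run, with adjusted p of at most 0.00212 when any one library was left out. Not passing were Gp1bb at -0.64 (SE 0.53, adjusted p = 0.444), Treml1 at -0.46 (SE 0.38, adjusted p = 0.445) and Gp9 at -0.16 (SE 0.37, adjusted p = 0.820).

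The adhesion genes also differed between the replicate numbers. All 10 lay higher in both replicate 2 libraries than in the other 4, against 24.0% of all tested genes. With the group in the fit, edgeR's quasi-likelihood test called all 10 higher in replicate 2 than in replicates 3 and 4, against 17.7% of genes called higher and 18.7% called lower (with library totals in place of TMM, 3139 higher and 2119 lower in place of 2588 and 2742). Gp1ba and Clec1b had too few reads to be tested in replicates 3 and 4 alone, so they entered this test through their replicate 2 reads. For both, a higher level in replicate 2 was in part a condition of being tested, so their place in both counts of 10 was largely set by the filter. The log2 differences were 6.24 (SE 0.36) for Treml1, 6.09 (SE 0.38) for Gp1bb, 5.34 (SE 0.34) for Vwf, 5.29 (SE 0.30) for Gp5, 5.12 (SE 0.40) for Gp9 and 4.74 (SE 0.38) for Clec1b. Smaller ones were 3.86 (SE 0.27) for Itga2b, 3.57 (SE 0.39) for Gp1ba, 1.70 (SE 0.31) for Itgb3 and 1.19 (SE 0.32) for Cd9, whose adjusted p of 0.0303 was the highest of the 10. The Cd9 call was lost without a filter on low counts (adjusted p = 0.195) and without shCxxc5 replicate 3, shCtrl replicate 3 or shCtrl replicate 4, and Itgb3 was lost without the filter (adjusted p = 0.0883).

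In each group Treml1 and Gp1bb stood out most in replicate 2 and Itgb3 and Cd9 least. Treml1 in replicate 2 was 33.4 times its mean of replicates 3 and 4 in shCxxc5 and 126 times in shCtrl. Vwf was 21.3 times in shCxxc5 and 66.3 times in shCtrl, and Itga2b 8.95 times in shCxxc5 and 21.9 times in shCtrl. Itgb3 was 1.82 times in shCxxc5 and 5.26 times in shCtrl, and Cd9 1.26 times in shCxxc5 and 3.73 times in shCtrl. The 2 genes that differed least between replicate numbers were thus the 2 with the highest level per kilobase in replicates 3 and 4.

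The difference between shCxxc5 and shCtrl was larger in replicate 2 than in replicates 3 and 4 for each of the 10 genes. Tested as the interaction of group with replicate 2 (edgeR's quasi-likelihood test, 2 residual degrees of freedom from replicates 3 and 4), all 10 were called lower, against 19.0% of tested genes called lower and 16.8% called higher. Gp1ba and Clec1b entered this test, too, through their replicate 2 reads, so their place in this count of 10 depends on the filter. The values ran from -2.003 for Gp9 to -1.30 for Itga2b on the log2 scale. The fit assumes that the lone replicate 2 libraries vary like the others, and DESeq2 with the same terms did not call Gp1ba, Gp1bb or Clec1b. Cxxc5 differed the same way, with -1.87 (SE 0.14), so the pair with the larger difference in adhesion genes was also the pair with the lowest Cxxc5 level in shCxxc5. The part of the Cxxc5 level in the result was not tested.

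Genes of other cell types were compared beside these values. The summed erythroid markers were 1643, 630 and 597 CPM in shCxxc5 libraries 2, 3 and 4, against 804, 550 and 571 CPM in shCtrl libraries 2, 3 and 4, so in replicate 2 they ran opposite to the adhesion genes between the groups. The transferrin receptor gene Tfrc made up much of that sum. Without it the sums were 812, 109 and 102 CPM in shCxxc5, against 439.6, 140.1 and 142 CPM in shCtrl, lower in shCxxc5 in replicates 3 and 4. In replicates 3 and 4, 5 of 13 tested erythroid markers fell (Klf1, Car2 and Aqp1 among them) and 1 rose (Tfrc), against 9.0% and 11% of all tested genes. Higher in replicate 2 were 11 of 13 and lower 0, against 17.7% and 18.7% of all tested genes. Granulocyte and monocyte markers summed to 6219 CPM in shCxxc5 replicate 2, of which Mpo held 2911 CPM. Their sum was 1655 to 1738 CPM in shCxxc5 replicates 3 and 4, and 1105 to 1572 CPM over the shCtrl libraries. The list did not move as a set. In replicates 3 and 4, 4 of 15 tested fell and 4 rose, against 9.0% and 11% of all tested genes. In replicate 2, 2 of 15 were higher than in the others and 4 lower, against 17.7% and 18.7%. Mast cell and basophil markers summed to 2229, 743 and 671 CPM in shCxxc5, against 343, 788 and 807 CPM in shCtrl. In replicates 3 and 4 they split, as 5 of 12 tested fell and 3 rose (Mcpt8, Prss34 and Ms4a2), against 9.0% and 11%. Higher in replicate 2 than in the others were 3 of 12 and lower 1, against 17.7% and 18.7%.

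Endothelial cells also make Vwf. Their 15 markers summed to 221, 291 and 292 CPM in shCxxc5 libraries 2, 3 and 4, against 397, 311 and 324 CPM in shCtrl, lower in shCxxc5 each time. Egfl7 made up much of these sums, with 122, 205 and 209 CPM in shCxxc5 and 195, 215 and 230 CPM in shCtrl. Of 8 tested in replicates 3 and 4, 0 passed, against 9.0% of all tested genes that fell and 11% that rose. In replicate 2, 4 of 8 were higher than in the others and 1 (Egfl7) lower, against 17.7% and 18.7% of all tested genes. The difference of the effect was called lower for 6 of 8 and higher for 0, against 19.0% and 16.8%. Sox17 and Cldn5 were at 0 in all libraries, and Cdh5 reached 0.308 CPM in shCxxc5 and 0.295 CPM in shCtrl. Lymphoid markers summed to 77.0 to 87.8 CPM in shCxxc5 and 46.5 to 81.9 CPM in shCtrl, with Cd3e at 0 in all libraries. LSK and stem cell markers summed to 1150, 2608 and 2623 CPM in shCxxc5, against 1532, 2651 and 2561 CPM in shCtrl, lowest in replicate 2 of each group. Most of that sum came from Ly6a, Cd34 and Flt3, and the markers did not move as a set. Of 11 tested, 4 were lower in replicate 2 than in the others (Ly6a, Cd34, Flt3 and Cd48). The 3 called higher were Slamf1 (log2 difference 2.33), Hlf (1.64) and Mecom (0.40). The part of these cell types in the adhesion gene values was not tested.

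**Figure D4:**
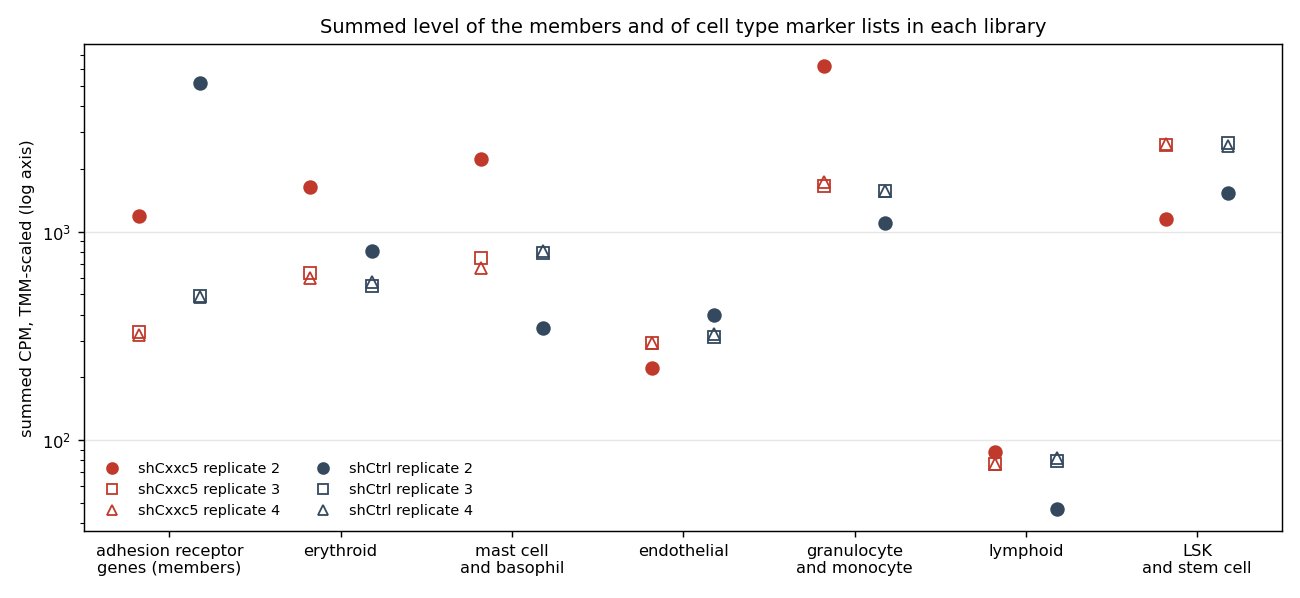
Summed level (TMM-scaled CPM, log axis) of the adhesion genes and of 6 cell type marker lists in each library, with shCxxc5 in red left of shCtrl in blue, replicate 2 as filled circles and replicates 3 and 4 as open squares and triangles. In replicate 2 the adhesion genes are higher in shCtrl, while the erythroid, mast cell and granulocyte sums are higher in shCxxc5.

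The other genes of platelet adhesion were read from lists of related genes, with the values in replicates 3 and 4 by edgeR's quasi-likelihood test. Of 22 tested platelet surface receptors outside the 10 genes, 3 fell and 0 rose, with a median of -0.10, against 9.0% of all tested genes that fell and 11% that rose. They were the thrombin receptor gene F2r at -0.39 (adjusted p = 3.82e-09), the SLAM family gene Cd84 at -0.26 (adjusted p = 0.0131) and the junction protein gene F11r at -0.24 (adjusted p = 0.0109). The list was not limited to receptors known from mouse platelets. Its other thrombin receptor genes, F2rl2 at -0.26 (adjusted p = 0.753) and F2rl3 at 0.07 (adjusted p = 0.432), did not pass. Gp6, the collagen receptor, had too few reads there and stood at 1.35, 0.223 and 0.185 CPM in shCxxc5, against 14.7, 0.401 and 0.403 CPM in shCtrl. In replicate 2, 17 of the 22 were higher and 0 lower, against 17.7% of all tested genes higher and 18.7% lower.

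Of 17 tested granule genes, 6 fell and 1 rose in replicates 3 and 4, with a median of -0.47, against 9.0% of all tested genes that fell and 11% that rose. Pf4, a chemokine of alpha granules, fell by 0.68 on the log2 scale (adjusted p = 2.74e-07), Timp3 by 0.67 (adjusted p = 7.09e-07) and thrombospondin 1 (Thbs1) by 0.48 (adjusted p = 2.81e-09). Of 21 tested signalling and cytoskeleton genes, 7 fell and 1 rose, with a median of -0.11, beside the same 9.0% and 11%. The adaptor gene Lcp2 (SLP-76) fell by 0.46 (adjusted p = 3.69e-08), thromboxane synthase (Tbxas1) by 0.43 (adjusted p = 1.22e-05) and the kinase gene Prkcq by 0.34 (adjusted p = 2.81e-06). Syk, the kinase that CLEC-2 uses, fell by 0.19 (adjusted p = 0.00048), and Tln1, which encodes the integrin activator talin, by 0.14 (adjusted p = 0.000873). The last 2 were chosen after their values were seen. Higher in replicate 2 than in the others were 13 of 17 granule genes, with 1 lower. Of 22 signalling and cytoskeleton genes tested there, 19 were higher and 0 lower. Alox12, among the 19, had too few reads to be tested in replicates 3 and 4 alone. It entered through its replicate 2 reads, so its call was largely set by the filter. The shares over all tested genes were 17.7% higher and 18.7% lower.

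Megakaryocyte transcription factors had a median of 0.00, with 5 of 19 lower and 2 higher in replicates 3 and 4. Over all tested genes 9.0% fell and 11% rose there, which are the shares beside each list of this paragraph. Lmo2, a cofactor of GATA factors, rose by 0.30 (adjusted p = 1.30e-07) and Cbfb, the partner of RUNX factors, rose by 0.21 (adjusted p = 0.00033). Among those that fell were Gata1 (-0.55), Zfpm1 (-0.24), Gfi1b (-0.23) and Nfe2 (-0.18). Of 9 tested ligands and proteases of the adhesion receptors, 2 rose and 0 fell: the collagen gene Col1a2 rose by 0.37 (adjusted p = 1.02e-05) and Adam10, a protease that sheds platelet receptors, by 0.21 (adjusted p = 0.000107), while Col1a1 at 0.22 did not pass (adjusted p = 0.0899). The fibrinogen genes Fga and Fgg and the vitronectin gene Vtn were at 0 in all libraries. Among 20 tested integrin subunits other than Itga2b and Itgb3, 5 fell and 1 rose, with Itgal at -0.35 (adjusted p = 8.58e-06), Itgae at -0.54 (adjusted p = 0.0019) and Itgb6 at -1.67 (adjusted p = 0.00271) on at most 2.09 CPM. The riser was Itgav at 0.15 (adjusted p = 0.042), whose product pairs with the beta chain that Itgb3 encodes. Higher in replicate 2 than in the others were 15 of the 19 transcription factors, with 1 lower. The same held for 6 of the 20 integrin subunits, with 5 lower, and 2 of the 9 ligands and proteases, with 2 lower. The shares over all tested genes were 17.7% higher and 18.7% lower.

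**Figure D5:**
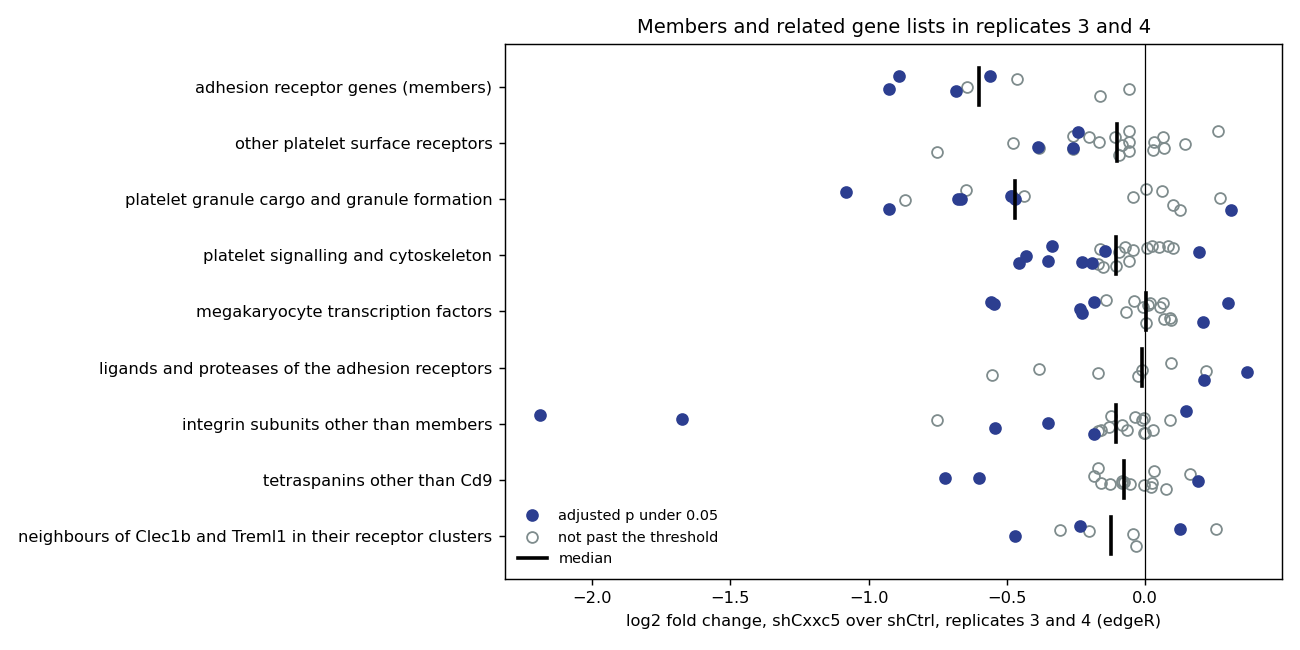
Log2 fold change of each tested gene, shCxxc5 over shCtrl in replicates 3 and 4 (edgeR), for the adhesion genes and 8 related lists, with filled points at an adjusted p under 0.05, open points otherwise and a bar at each median. The medians are -0.60 for the adhesion genes and -0.47 for granule genes, and the other lists lie between -0.12 and 0.00.

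The 10 genes whose profile over the 6 libraries was nearest to the mean profile of the adhesion genes were Serpinb2, Rbpms2, Gucy1b1, Gnaz, Pls1, Tmem163, Ripor3, Serpinb10, Diras2 and P3h2. The root mean square difference of their centred log2 CPM from that profile ran from 0.139 to 0.287, against a median of 2.06 over the 11079 genes compared. These 10 were picked for the smallest difference, so lying below that median was fixed by the choice. Serpinb2 was at 39.9, 3.70 and 3.88 CPM in shCxxc5 libraries 2, 3 and 4, against 182, 6.24 and 4.77 CPM in shCtrl libraries 2, 3 and 4. Gucy1b1, a subunit of the nitric oxide receptor guanylate cyclase, was at 29.4, 2.98 and 2.96 CPM in shCxxc5, against 132, 6.06 and 4.37 CPM in shCtrl. Among the adhesion genes themselves the difference from their own mean was lowest for Itga2b (0.183) and highest for Cd9 (1.43). The likeness rests on replicate 2, since 0 of the 10 were among the nearest 10 when replicates 3 and 4 alone were used.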

How the data were processed

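Messenger RNA of 6 libraries of sorted mouse LSK cells was sequenced, per the labels' protocols, from a stranded kit. The authors deposited raw counts of reads per Ensembl gene. Alignment to GRCm38 with STAR 2.5.2b, counting with featureCounts 1.5.1 and the use of DESeq2 are named in the submitters' processing notes. The sources used here do not give the strand setting or annotation release of the counting. Reads of overlapping genes therefore could not be told apart. Symbols, positions and exon lengths came from GENCODE M21 (GRCm38), which matched 49412 of 49671 identifiers. The counts carry no molecular identifiers, so intervals cover counting error only.

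Groups and replicate numbers were taken from the sample titles. Testing used edgeR 4.0.16 under R 4.3.3, with TMM scaling, filterByExpr and the robust quasi-likelihood test, the group being the only term. P-values were adjusted by Benjamini-Hochberg over all genes tested, with a threshold of 0.05. SE is the size of the log2 fold change over the root of the F statistic. Further fits used replicates 3 and 4 alone, replicate 2 against the others with the group as a term, and the interaction of both. CPM is TMM-scaled, log2 CPM has a prior count of 2, and within-pair and within-library intervals are exact (Clopper-Pearson) at 95%.

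The adhesion genes, the related lists, the marker lists and the comparisons were chosen with earlier results of these data known. Named were the 10 genes, Cxxc5, the 3 genes of smallest unadjusted p in replicates 3 and 4 from each related list, and the 10 genes of nearest profile whose average log2 CPM was 1 or more and whose symbol was no clone name. Any other gene in the text was picked with its values in view. A gene taken by this rule is not reported here. The meaning of a replicate number is not in the labels. Pairs here follow the numbers in the titles. Across genes, libraries of equal number 2, 3 and 4 deviated together from their group means (correlations of 0.670, 0.554 and 0.489). Correlations across numbers 3 and 4 were similar (0.475 and 0.489), so this check does not show that libraries 3 and 4 are paired by number.

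Alternatives were DESeq2 1.42.0, limma-voom (limma 3.58.1), 2 other scalings, 2 other filters, no robust fitting, the replicate block, leaving out each library, and prior counts of 0.5 and 5. The code was tested on simulated counts. Over all 6 libraries with replicate means as measured (14386 genes) it recovered 33% of genes changed by 2-fold and 75% of those changed by 4-fold. In the design of replicates 3 and 4 (14062 genes) it recovered 90% of genes changed by 2-fold and 97% of those changed by 4-fold. Changed genes were drawn only from those above a set mean count in the libraries used. Gp1ba, Gp1bb and Clec1b lie below it in replicates 3 and 4, so the recovery there does not cover them.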

Additional observations from a re-analysis of the deposited data

Results flagged for a closer look

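The difference between shCxxc5 and shCtrl was not the same in replicate 2 as in replicates 3 and 4 for any of the 10 adhesion genes, by edgeR's quasi-likelihood test of that difference with Benjamini-Hochberg adjustment. On the log2 scale, the effect in replicate 2 minus that in replicates 3 and 4 was -2.003 for Gp9, -1.88 for Gp1bb, -1.87 for Treml1, -1.75 for Clec1b, -1.70 for Gp1ba, -1.64 for Vwf, -1.56 for Cd9, -1.53 for Itgb3, -1.42 for Gp5 and -1.30 for Itga2b. The adjusted p was highest for Gp1ba (0.0336), then Clec1b (0.0156) and Gp1bb (0.00285), and at most 0.000155 for the other genes. In each case shCxxc5 was further below shCtrl in replicate 2. Gp1ba and Clec1b had too few reads to be tested in replicates 3 and 4 alone. They entered this test through their replicate 2 reads, so their place among the 10 depends on the filter. Replicate 2 is 1 library in each group, so the test takes its spread from replicates 3 and 4. In DESeq2 the adjusted p was 0.192 for Gp1ba, 0.125 for Gp1bb and 0.0843 for Clec1b.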

How the results depend on the processing

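Over all 6 libraries the count of genes called was 0 in the 7 other fits with edgeR or limma-voom, the replicate block included, and 0 without each library, against 19 in DESeq2 and 147 in DESeq2 with the replicate block. Leaving out each library in turn moved the log2 fold changes over all 6 libraries from -3.61 to 0.64 for Gp1ba, -5.84 to 2.76 for Gp1bb, -5.20 to 2.10 for Gp5, -4.64 to 2.42 for Gp9, -3.57 to 1.29 for Itga2b, -5.44 to 2.03 for Vwf, -5.87 to 3.14 for Treml1, -4.50 to 1.74 for Clec1b and -1.18 to 0.063 for Cd9. Each of these turned without shCtrl replicate 2 alone. In replicates 3 and 4 the count of 2833 became 1353 in DESeq2 and 3300 with the replicate block, and 1507 to 2043 without each library (1507 without shCxxc5 replicate 3, 1539 without shCtrl replicate 3 and 1772 without shCxxc5 replicate 4). Library totals in place of TMM gave 1120 higher and 1606 lower there, in place of 1555 and 1278. Gp9 in replicates 3 and 4 ran from -0.52 to 0.060, turning without shCxxc5 replicate 4. The replicate block changed no call of an adhesion gene in edgeR. For replicate 2 against the others the count of 5330 ran from 3183 without shCtrl replicate 3 to 8816 without shCxxc5 replicate 2, and was 3531 without shCtrl replicate 4. For the difference of the effect the count of 5235 became 2390 in DESeq2 and 4240 to 5116 without each library of replicates 3 and 4, leave-outs added after the data were seen, as was the motif TGATAA. In those leave-outs and without a filter on low counts the call was lost in some fits for Gp1ba, and in leave-outs for Gp1bb and Clec1b. The count of 9 genes lower in all 3 pairs was the same under both other scalings and both other prior counts. The cause of these changes was not tested. Depth limits Gp1ba, Clec1b, Gp1bb, Treml1, Gp9 and Gp5 outside replicate 2, where each had at most 60 reads in a library.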

Other observations

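Genes related to Cd9, Clec1b and Treml1 by family were read in replicates 3 and 4 by edgeR's quasi-likelihood test. Of 17 tested tetraspanins other than Cd9, 2 fell and 1 rose, against 9.0% of all tested genes that fell and 11% that rose. Tspan32, a tetraspanin of blood cells, fell by 0.72 on the log2 scale (adjusted p = 0.000988), with 71.3, 5.25 and 4.93 CPM in shCxxc5 libraries 2, 3 and 4, against 127, 7.93 and 9.20 CPM in shCtrl libraries 2, 3 and 4. Cd82 fell by 0.60 (adjusted p = 8.78e-07) and Tspan4 rose by 0.19 (adjusted p = 0.0037).

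Of 8 tested neighbours of Clec1b and Treml1 in their receptor gene clusters, 2 fell and 1 rose, against 9.0% and 11% of all tested genes. The myeloid receptor gene Trem3 fell by 0.47 (adjusted p = 0.0135) and Trem1 by 0.24 (adjusted p = 0.015), while the lectin gene Clec2d rose by 0.13 (adjusted p = 0.0446). In replicate 2, 3 of 9 tested neighbours were higher and 3 lower than in replicates 3 and 4. Over all tested genes 17.7% were higher and 18.7% lower. Olr1, among those called higher, had too few reads to be tested in replicates 3 and 4 alone. It entered through its replicate 2 reads, so its call was largely set by the filter. Trem1 was at 13.1 CPM in shCxxc5 and 5.65 CPM in shCtrl of replicate 2, against 34.28 and 33.97 CPM in shCxxc5 and 39.9 and 41.0 CPM in shCtrl of replicates 3 and 4.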
